A study of Mus musculus with 2112 samples.

Results

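Multipotent progenitors (MPP) that had not been stimulated were compared between old and young mice, using single cells sorted from bone marrow and sequenced one per well. The cells were chosen by their labels alone: population MPP, no stimulation, single cell, and no quality label for few genes, for pct_trans (a label the submitters did not explain) or for plasma. Before the quality labels were applied there were 310 such wells, and the whole series held 2046 single-cell wells, of which 1408 cells were kept. Old animals gave 121 cells (mouse 2, 41 cells; mouse 3, 25; mouse 2-2, 26; mouse 2-3, 29) and young animals 101 (mouse 1, 42; mouse 2-1, 29; mouse 2-3, 30). The animal is the replicate, so 4 old animals were set against 3 young ones. Mouse 2-3 of the old group and mouse 2-3 of the young group are different animals.

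All cells, of both ages, had been kept at 37 °C in haematopoietic stem and progenitor cell medium before lysis, so "unstimulated" means cultured without ligand. The stimulated MPP used below for comparison came from the same 7 animals and 2 further young ones, and received 100 ng/ml lipopolysaccharide (LPS) and 1 µg/ml Pam3CSK4, ligands of Toll-like receptors, for 2 h. Long-term (LT-HSC) and short-term haematopoietic stem cells (ST-HSC), also unstimulated, came from the same 7 animals. The labels name ages only as old and young, and strain, sex and sorting markers are not given in the sources used here. Old mice 2 and 3 and young mouse 1 were on plates 1 and 2 (plate set A), and the other 4 animals on plate 4 (plate set B).

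MPP are the progeny of stem cells that have lost long-term self-renewal, divide often and feed both the lymphoid and the myeloid branch of blood formation. In old mice the stem cell compartment is known to expand and to favour myeloid and platelet output, while lymphoid output declines. Nfkb2 encodes p100, the precursor of the NF-kB subunit p52, and its own transcription is induced by NF-kB. Gbp3 encodes a guanylate-binding protein, one of a family of GTPases induced by interferons.

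The sums of counts per animal ran from 7194754 to 26698006, and the ribosomal RNA precursor Rn45s took 8.52% to 26.5% of them. Levels below are CPM, a gene's counts relative to the animal's summed counts, brought to one common total with TMM scaling, and SDs are over animals. Kit, the stem cell factor receptor, had a count in 120 of 121 old and 99 of 101 young cells, and the progenitor receptor Flt3 in 102 and 91. Slamf1, carried by stem cells, had one in 2 old and 1 young cells. The B cell genes Pax5 and Ms4a1, the T and NK cell genes Cd3e, Cd3g and Ncr1, and the endothelial genes Cdh5 and Kdr were at 0 in all 7 animals. Other markers of these cell types were widely detected. Xbp1 (plasma and B cell) had a count in 66.2% of cells, Nkg7 (T and NK cell) in 73.4% and Pecam1 (stroma and endothelium) in 56.8%. Xist, the X-inactivation RNA of female cells, lay between 1234 and 3059 CPM in each animal. Old mouse 3 lost 22 wells to the plasma label, against 4 in the other 6 animals together, and kept 40.3% of its wells.

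Of 12664 genes tested, 2 were higher in old MPP and none was lower at an adjusted p under 0.05 (edgeR quasi-likelihood test over the 16 sums of stimulated and unstimulated MPP, with the plate set as a covariate). These are 0.0158% and 0.0% of the genes tested. At an unadjusted p under 0.05, 1.7% of the genes were higher and 1.86% lower, and DESeq2 called 37 higher and 39 lower. The pair that passed was Nfkb2 and Gbp3, which were known from earlier results of these data to stand out here. Neither was among the 7 genes called with the animal as a block (2 higher and 5 lower, limma-voom). Neither was among the 4 called by edgeR over the 21 unstimulated sums of LT-HSC, ST-HSC and MPP, a fit added after the data were seen, which were Plscr2 and Aldh1a1 (higher) and Tmem181b-ps and Hlf (lower).

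Start sites of both genes whose surrounding letters carry motifs of the factors named above are shown. RefSeq promoter windows of 300 bases (mouse build GRCm38.p6, both genes on the plus strand) are printed 5′ to 3′. Matches to the kappa B consensus are in capitals for 2 of the 3 Nfkb2 windows. Matches to the interferon-stimulated response element, on either strand, are in capitals for the first Gbp3 window.
Nfkb2, chr19:46304487-46304786: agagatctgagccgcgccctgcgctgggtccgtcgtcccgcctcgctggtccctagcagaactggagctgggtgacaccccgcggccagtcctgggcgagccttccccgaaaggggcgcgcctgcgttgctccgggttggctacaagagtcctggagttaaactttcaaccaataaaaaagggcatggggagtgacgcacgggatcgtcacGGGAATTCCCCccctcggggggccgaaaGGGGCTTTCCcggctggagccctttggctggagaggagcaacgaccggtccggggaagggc
Nfkb2, chr19:46305445-46305744: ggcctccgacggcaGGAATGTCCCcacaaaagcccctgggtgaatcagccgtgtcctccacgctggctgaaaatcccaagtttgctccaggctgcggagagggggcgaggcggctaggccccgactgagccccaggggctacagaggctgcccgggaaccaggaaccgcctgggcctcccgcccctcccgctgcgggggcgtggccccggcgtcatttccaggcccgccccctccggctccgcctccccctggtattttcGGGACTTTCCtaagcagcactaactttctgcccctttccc
Gbp3, chr3:142559794-142560093: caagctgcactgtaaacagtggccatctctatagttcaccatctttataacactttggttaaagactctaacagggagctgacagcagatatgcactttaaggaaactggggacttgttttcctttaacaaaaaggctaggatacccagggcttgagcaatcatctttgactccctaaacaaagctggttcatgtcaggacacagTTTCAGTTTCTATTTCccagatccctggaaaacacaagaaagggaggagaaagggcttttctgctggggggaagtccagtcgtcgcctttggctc
The first Nfkb2 window holds 3 kappa B matches, of which the first 2 overlap, and the second holds 2. The first Gbp3 window holds 2 overlapping response elements and no kappa B match. A second Gbp3 window, chr3:142560106-142560405, is not printed and holds no match to either motif. Of all 32851 RefSeq windows of that length, 8.46% hold a kappa B match and 3.44% hold an interferon-stimulated response element. A match describes letters and was not tested for binding.

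Nfkb2 was at 31.6, 26.2, 41.9 and 16.4 CPM in old mice 2, 3, 2-2 and 2-3. Its level in young mice 1, 2-1 and 2-3 was 2.73, 2.15 and 0 CPM, the last with no count in 30 cells. A floor of 3 allows up to 0.390 CPM by reads and up to 10.0% of cells. The CPM limit takes reads as independent, so it does not bound the level in cells or animals. Every old animal was above every young one, at 29.03 ± 10.6 against 1.63 ± 1.44 CPM (SD, n = 4 and 3; log2 fold change 4.01 ± 0.54 (SE), adjusted p = 0.0140 by edgeR). The means were 28.9 and 2.73 CPM within plate set A and 29.2 and 1.08 CPM within plate set B. The call ended with the animal as a block (adjusted p = 0.207 by limma-voom), in the 7 unstimulated sums alone (0.95 by edgeR) and over the 21 unstimulated sums (0.259). It also ended within plate set A (1 young animal, log2 fold change 3.40) and B (0.181) and in cells labelled cycling alone (0.190). The same held when any of old mice 2, 2-2 and 3 or young mice 1 and 2-1 was left out (0.0551 to 0.0999). The log2 fold change stayed between 3.26 and 6.76 over all 25 alternatives. Its highest value came from cells without the cycling label, a fit with 1 old animal.

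Gbp3 was at 60.8, 43.8, 51.3 and 34.2 CPM in the same order of old mice and at 12.7, 18.5 and 15.2 CPM in the young ones. The groups again did not overlap, at 47.5 ± 11.3 and 15.4 ± 2.91 CPM (SD, n = 4 and 3; log2 fold change 1.63 ± 0.25 (SE), adjusted p = 0.0361 by edgeR). Within plate set A the means were 52.3 and 12.7 CPM, and within plate set B 42.8 and 16.8 CPM. Gbp3 passed in 7 of 25 alternatives. Its call ended with the animal as a block (adjusted p = 0.419 by limma-voom), in the 7 unstimulated sums alone (0.95 by edgeR) and over the 21 unstimulated sums (0.937). It also ended within plate set A (1 young animal, log2 fold change 2.04) and B (0.902) and in cells labelled cycling alone (1). The same held for cells without that label (1 old animal, 2.81) and with few-genes and pct_trans cells kept (0.0593). With log2(mean TPM + 1) in place of counts (0.103 by limma) or log2(mean TPM + 0.1) it did not pass. It was lost in 8 of 9 fits that left out 1 animal (0.0613 to 0.462 by edgeR). Its log2 fold change stayed between 1.27 and 2.81. Over all genes tested, every old animal was above every young animal in 2.8% and below in 2.71%.

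Sums cannot tell more cells from more RNA per cell, so the cells were also counted. Nfkb2 had at least 1 count in 30 of 121 old cells and 9 of 101 young ones, and Gbp3 in 49 and 21. By animal, Nfkb2 was found in 12, 6, 7 and 5 cells of old mice 2, 3, 2-2 and 2-3 and in 6, 3 and 0 cells of young mice 1, 2-1 and 2-3. Among cells with a count, the median Nfkb2 level was 44.4 CPM in old and 17.6 CPM in young cells, and 11 old cells and no young cell were above 100 CPM. For Gbp3 these medians were 93.6 and 86.2 CPM, 23 old and 10 young cells were above 100 CPM, and the highest cells were at 531 CPM in old and 201.1 CPM in young mice. The 3 highest cells held 42.1% of the old Nfkb2 counts and 29.8% of the old Gbp3 counts.

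Both genes were found together in 14 old cells and 3 young cells, where the product of their shares gives 12.1 and 1.87. Of the old Nfkb2-positive cells 27 of 30 carried the cycling label, as did 106 of all 121 old cells. With each cell thinned to 100000 counts, Nfkb2 was detected in 26.8%, 12.5%, 25% and 18.5% of the cells of old mice 2, 3, 2-2 and 2-3 and in 10.0%, 10.3% and 0% of those of young mice 1, 2-1 and 2-3. Gbp3 shares were 43.9%, 37.5%, 45.8% and 22.2% in old and 20%, 27.6% and 13.04% in young animals, so old mouse 2-3 fell among the young for Gbp3. The Nfkb2 groups stayed apart only narrowly, with 12.5% of 24 cells in old mouse 3 against 10.3% of 29 in young mouse 2-1. Over all 10821 genes found in at least 5% of cells, 7.35% had every old animal above every young one.

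The stem cell populations of the same animals gave Nfkb2 values between those of young and stimulated MPP. Nfkb2 was at 15.9 ± 12.7 CPM in old and 8.71 ± 1.37 in young LT-HSC, and at 17.4 ± 8.79 and 37.6 ± 11.5 CPM in ST-HSC (SD, n = 4 and 3), the latter with the young mean above the old. Gbp3 was at 70.9 ± 60.1 and 58.3 ± 5.04 CPM in LT-HSC and at 53.7 ± 8.50 and 74.6 ± 55.6 CPM in ST-HSC. The age difference of MPP was not called different from that of LT-HSC for either gene (log2 difference 3.23 ± 1.13 for Nfkb2, adjusted p = 0.371 by edgeR, and 1.33 ± 0.71 for Gbp3, 0.649), nor from that of ST-HSC (5.22 ± 1.17 and 2.09 ± 0.72, both 0.815).

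After LPS and Pam3CSK4, Nfkb2 reached 613.8 ± 82.1 CPM in old and 548 ± 68.6 CPM in young MPP (SD, n = 4 and 5), and Gbp3 reached 461 ± 73.3 and 448.9 ± 94.4 CPM. Ages overlapped in both genes there. The old unstimulated level of Nfkb2 was therefore far below the stimulated one in every animal, at most 41.9 CPM against at least 484 CPM. No gene's age difference passed as different between stimulated and unstimulated MPP (0 of 12664, 0.0%, by edgeR, against 4.69% at an unadjusted p under 0.05, and 42 higher and 46 lower by DESeq2); for Nfkb2 the log2 difference was -3.84 ± 0.64 (SE, adjusted p = 0.215) and for Gbp3 -1.62 ± 0.32 (0.697).

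**Figure D1:**
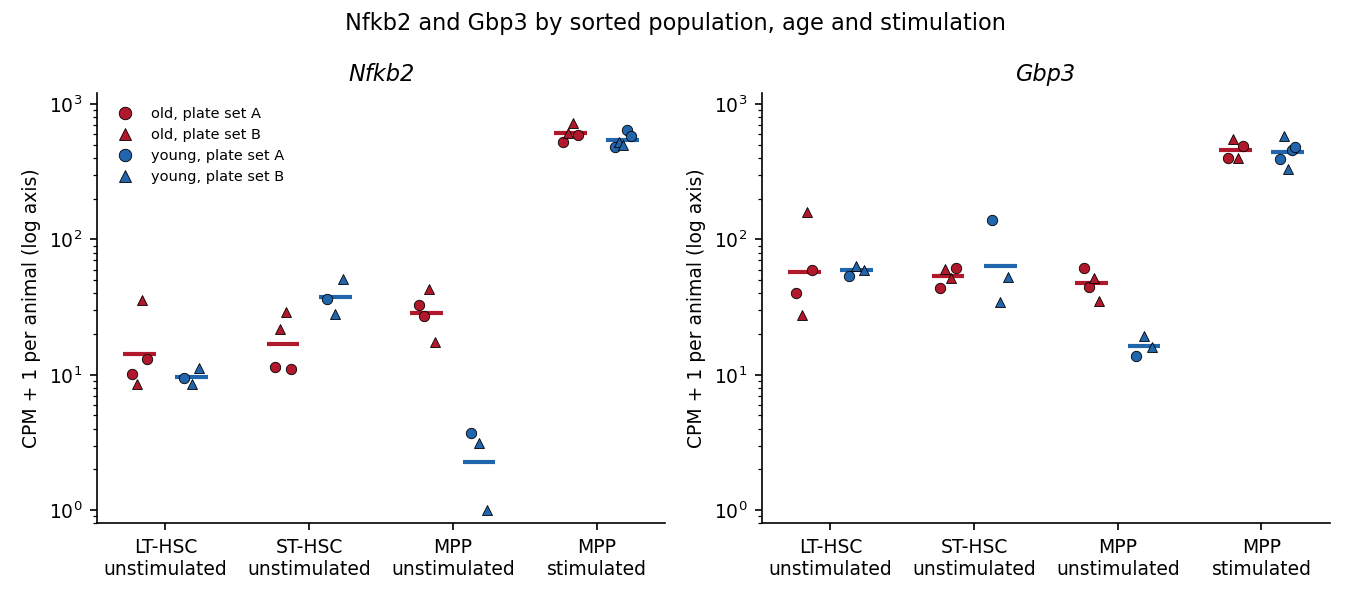
Nfkb2 and Gbp3 as CPM + 1 on a log axis, 1 point per animal (red old, blue young; circles plate set A, triangles plate set B), with bars at the geometric mean, for unstimulated LT-HSC, ST-HSC and MPP and for stimulated MPP. In unstimulated MPP the 4 old points of each gene lie above the 3 young ones, and in stimulated MPP both ages lie above 300 CPM and overlap.

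In a list of 48 genes of the NF-kB and Toll-like receptor response, all tested, 1 was called higher (Nfkb2) and none lower; 31 had a positive log2 fold change, with a median of 0.17, against 49.5% positive and a median of -0.0069 over all genes. Nfkbia, the inhibitor that NF-kB induces and that holds it in the cytoplasm, was at 58.5, 84.8, 146 and 78.8 CPM in old and 67.4, 40.2 and 67.04 CPM in young animals, which overlap (log2 fold change 0.66 ± 0.24, adjusted p = 1 by edgeR). Ebi3, a cytokine subunit, was lower in every old animal, at 10.7 to 35.98 CPM against 37.4 to 83.7 CPM (-1.29 ± 0.39, adjusted p = 1). Ccl4, a chemokine that NF-kB induces, was at 2.80 to 9.33 CPM in old and 9.51 to 24.96 CPM in young animals (-1.85 ± 0.44, adjusted p = 0.791). Neither of these 2 genes passed. In the RefSeq windows, 17 of the 39 list genes that matched hold a kappa B match, against 9.55% of all 27025 genes. The list holds genes of this response, and the windows are reference sequence, so the shares do not bear on age.

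Receptors and adaptors of the Toll-like receptor pathway gave no call in 29 genes tested of 31 (median log2 fold change 0.11, 17 positive). Traf6, the ubiquitin ligase that links these receptors to NF-kB, was above the young range in each old animal, at 39.8 to 84.2 CPM against 23.3 to 35.8 CPM, without passing (0.97 ± 0.47, adjusted p = 1 by edgeR). Cd14, the LPS co-receptor, had 0 counts in old MPP and 41 in young ones, all in 1 cell of young mouse 1.

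Of 58 genes of the interferon response tested, 1 was called (Gbp3) and 28 had a positive log2 fold change, with a median of -0.07. Irf7, the factor that amplifies type I interferon, was at 32.6, 24.8, 30.7 and 15.96 CPM in old mice 2, 3, 2-2 and 2-3 and at 62.6, 62.3 and 60.2 CPM in young mice 1, 2-1 and 2-3. Old animals were thus below young ones without overlap (log2 fold change -1.22 ± 0.41, adjusted p = 1 by edgeR). The antiviral genes Mx1 (at most 0.561 CPM in old, up to 5.8999 CPM in young; -3.01 ± 1.02) and Oas2 (10.9 to 18.04 against 12.9 to 91.5 CPM; -1.58 ± 0.56) had lower means in old animals, with overlapping ranges. Of the 42 list genes with a RefSeq window, 25 hold an interferon-stimulated response element, against 3.99% of all genes. This too describes the list and reference sequence, and does not bear on age.

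Genes of antigen presentation gave no call in 21 tested. Their median log2 fold change was 0.26, with 16 positive. H2-Ab1, a class II chain, was at 106, 149, 116.5 and 151 CPM in old and 84.2, 87.1 and 10.2 CPM in young animals (1.10 ± 0.52, adjusted p = 1), and H2-Q7, a class I gene of a family of near-identical members whose reads may be shared, at 225.03 to 313 and 184 to 213.98 CPM (0.40 ± 0.20). At equal depth the 21 genes were detected in a mean of 77.6% ± 3.44 of old and 68.02% ± 6.80 of young cells, with the lowest old animal at 74.3% and the highest young one at 75.2%.

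The genes with the next smallest p, none of which passed, were Zfp346, Mid1 and Plscr2 with higher values in old MPP. Zfp346, a zinc finger protein that binds double-stranded RNA, was at 30.1, 27.02, 37.2 and 54.2 CPM in old and 1.58, 12.04 and 9.79 CPM in young animals (2.84 ± 0.65, adjusted p = 0.791 by edgeR). Mid1, a microtubule-binding ubiquitin ligase, had a count in 99 of 121 old and 25 of 101 young cells. It was at 57.5, 57.7, 51.97 and 122 CPM in old and at 7.04, 6.98 and 0.670 CPM in young animals (3.86 ± 0.96, adjusted p = 0.920). The other groups showed Mid1 in the same order: LT-HSC had 49.02 and 1.51 CPM, ST-HSC 68.2 and 6.16 CPM, and stimulated MPP 104 and 4.26 CPM (old and young means).

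Plscr2, a phospholipid scramblase, had 660 counts in 9 of 121 old cells, at 12.2, 15.6, 3.15 and 8.46 CPM by animal. It had 0 in 101 young cells. The 3 highest cells held 70.5% of the old counts. Summed reads were at least 155.99-fold higher in old (floor of 3 counts over the group). That bound takes reads as independent, so it does not bound the difference between cells or animals. The adjusted p of Plscr2 was 0.920 by edgeR, and 0.00517 over the 21 unstimulated sums. On the lower side Tmem181b-ps, a transcribed pseudogene whose reads may be shared with its parent family, came nearest, at 231.4, 178.6, 102 and 143.2 CPM in old and 464, 335.5 and 480 CPM in young animals (-1.43 ± 0.24, adjusted p = 0.0789). It passed with the animal as a block (-1.30 ± 0.18, adjusted p = 0.0123 by limma-voom) and over the 21 unstimulated sums (0.00598 by edgeR). It also had lower old values in LT-HSC (243.4 to 334.3 against 494 to 505 CPM), in ST-HSC (186 to 344 against 490 to 658.9 CPM) and in stimulated MPP (81.5 to 128 against 227.1 to 307 CPM), in every case without overlap.

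Tmem171 had 0 counts in old MPP and 87 in 4 young cells, at least 40.9-fold lower in summed reads only (adjusted p = 0.131 by edgeR). Hivep3, a zinc finger protein that binds kappa B-like sites, was at 0.276 to 2.73 CPM in old and 24.8, 3.57 and 19.04 CPM in young animals (-3.60 ± 0.67, adjusted p = 0.135). Creb5 had 2 counts in old and 125 in young sums, a ratio of 88.1 with a counting interval of 23.9 to 736, most of it in young mouse 2-1 (8.396 CPM), and 0 in young mouse 1.

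More old than young MPP carried the submitters' cycling label. The share was 90.2%, 92.0%, 76.9% and 89.7% in old mice 2, 3, 2-2 and 2-3 and 66.7%, 75.9% and 60.0% in young mice 1, 2-1 and 2-3. All old animals were above all young ones, the closest being old 2-2 and young 2-1. The means were 87.2% ± 6.93 and 67.5% ± 7.96 (SD, n = 4 and 3; exact two-sided permutation p = 0.0571, adjusted p = 0.229 over 4 measures). No p below 0.0571 can be reached with 4 against 3 animals, so the design cannot pass 0.05. The difference of 19.7 points was 24.5 points within plate set A and 15.4 points within plate set B.

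How the label was set is not given in the sources used here, and cells with it differ from cells without it in the genes below. Mcm5 was detected in 90.8% of labelled cells and 17.8% of the others, and Cdk1 in 65.6% and 2.22%, so label and cell cycle genes are not separate evidence. When wells with the few-genes or pct_trans label were taken back in, still without those labelled plasma, the shares were 59.7%, 72.5%, 75.9% and 90% in old and 51.6%, 76.7% and 58.1% in young animals. The ages then overlapped, with a difference of 12.4 points (exact permutation p = 0.286).

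In the other populations of the same animals the label ran differently. In LT-HSC it was carried by 6.45%, 13.8%, 4.00% and 12.9% of old and 50%, 41.4% and 62.96% of young cells, the opposite order, again without overlap (means 9.29% ± 4.81 and 51.4% ± 10.9). ST-HSC ages overlapped, at 33.5% ± 8.50 and 23.4% ± 15.3. The share in MPP minus that in LT-HSC of the same animal, a comparison added after the data were seen, was 72.9 to 83.8 points in old and -2.96 to 34.5 points in young mice (exact permutation p = 0.0571, the smallest possible). Young mouse 2-3 had about as many labelled cells in LT-HSC as in MPP.

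**Figure D2:**
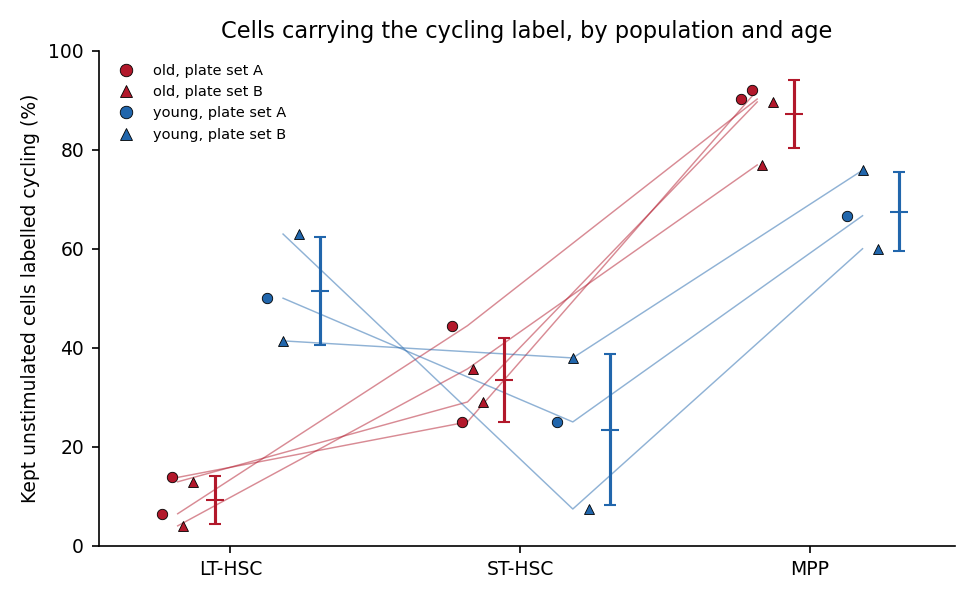
Percent of kept unstimulated cells with the cycling label in LT-HSC, ST-HSC and MPP, 1 point per animal (red old, blue young; circles plate set A, triangles plate set B), lines joining the populations of 1 animal and bars giving the mean ± SD. Old animals lie below young ones in LT-HSC (4.00% to 13.8% against 41.4% to 62.96%) and above them in MPP (76.9% to 92.0% against 60.0% to 75.9%).

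Kept share, genes detected and Rn45s share were measured beside it. Old animals kept 70.97% ± 23.4 and young ones 86.02% ± 15.9 of their wells (exact permutation p = 0.343, adjusted 0.400). With every cell thinned to 100000 counts without Rn45s, which left out 5 old and 9 young cells, an old cell detected 4536 ± 332 genes and a young one 4001 ± 451.5 (exact permutation p = 0.114, adjusted 0.229). Cells with the cycling label detected more genes than the others in each of the 7 animals, at 3980 to 5022 against 2969 to 3874. Rn45s took 14.6% ± 7.39 and 18.8% ± 6.91 (exact permutation p = 0.400). These values move with the detection shares that follow, and their part in them was not tested.

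Detection shares were higher in old MPP for most genes. Of 10821 genes found in at least 5% of cells, 75.3% had a higher mean share in old animals, with a median difference of 4.41 points. The share was above every young animal in every old animal for 795 genes (7.35%) and below for 94 (0.869%). Shares of the gene lists are to be read against these values.

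The 41 genes of G2 and M phase were detected in a mean of 44.7%, 53.4%, 45.1% and 41.1% of the cells of old mice 2, 3, 2-2 and 2-3 and of 40.1%, 23.05% and 24.8% of those of young mice 1, 2-1 and 2-3. Young mouse 1 came close to old mouse 2-3, and the other 2 young animals were far lower. The mean shares were 46.1% ± 5.18 and 29.3% ± 9.39, 41 of 41 genes had the higher mean in old, and 18 of 41 did not overlap between ages. Of all genes in at least 5% of cells, 7.35% had every old animal above every young one. In cells labelled cycling alone the means were 51.8% and 40.6%.

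Ccnb1, the cyclin of mitotic entry, was detected in 43.9%, 50%, 45.8% and 40.7% of old and 27.5%, 20.7% and 17.4% of young cells by animal. Its partner kinase Cdk1 was found in 54.2% to 79.2% of old and 30.4% to 45% of young cells, and Top2a, the topoisomerase that untangles replicated DNA, in 62.96% to 95.8% and 34.8% to 62.5%. Mad2l1 of the spindle checkpoint had shares of 48.8% to 70.8% and 30.4% to 45%, and Ect2, the exchange factor that drives cytokinesis, 41.5% to 54.2% and 17.2% to 25%. None of these 5 overlapped. Tacc3, a spindle protein, did, because old mouse 2-2 (45.8%) lay under young mouse 1 (47.5%).

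S phase genes showed a difference of 14.005 points over 36 genes, at 59.4% ± 4.15 and 45.4% ± 6.56, with 35 of 36 higher in the old mean and 12 without overlap, against 7.35% of all genes. Mcm5, of the replicative helicase, was detected in 87.8%, 95.8%, 75% and 77.8% of old and 72.5%, 65.5% and 43.5% of young cells. Fen1, which trims Okazaki fragments, had shares of 77.8% to 87.5% and 43.5% to 60.0%, and Gmnn, geminin, the inhibitor of re-licensing, 68.3% to 75% and 34.8% to 57.5%. Rrm1, the large subunit of ribonucleotide reductase (70.8% to 91.7% against 43.5% to 65%), and Rfc4 of the clamp loader (60.98% to 70.8% against 34.5% to 47.8%) did not overlap either, while Mcm3 did (77.8% to 92.7% against 47.8% to 79.3%). In cells labelled cycling alone the S phase difference shrank to 4.71 points, at 65.9% and 61.2%.

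**Figure D3:**
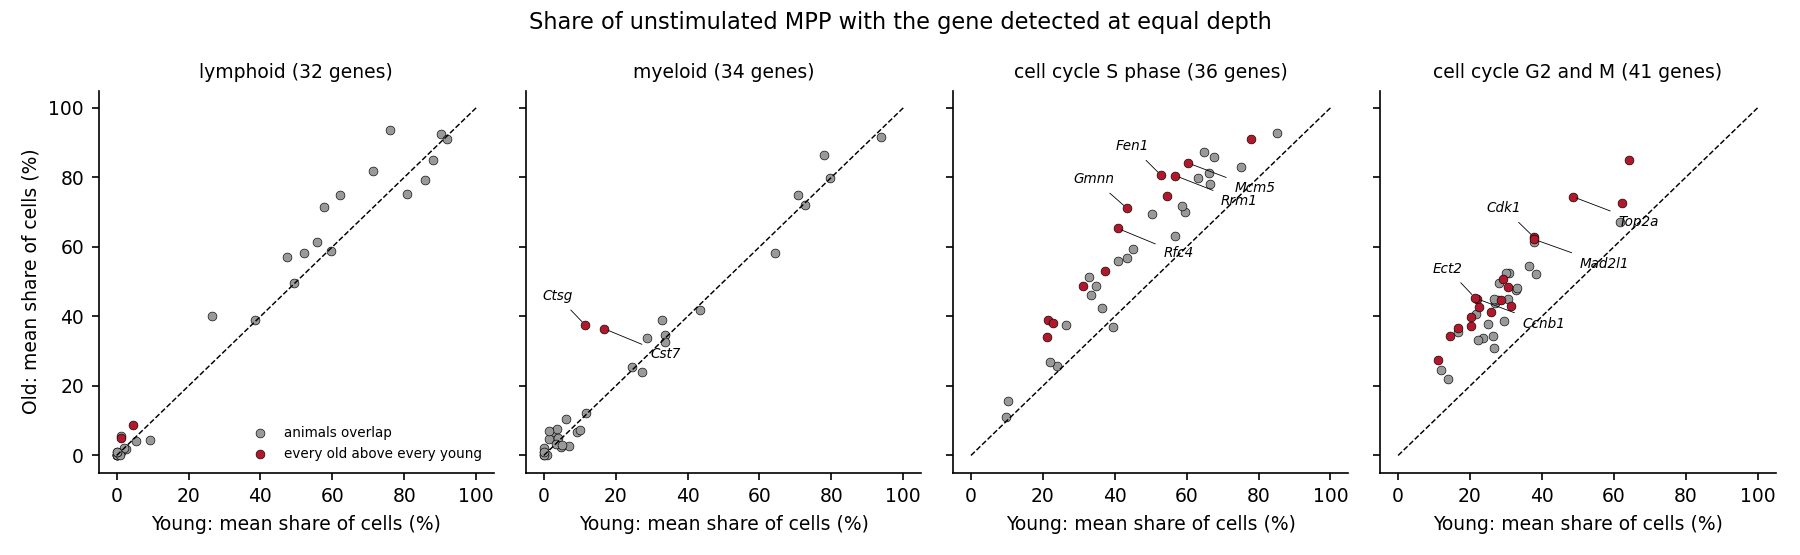
Mean share of unstimulated MPP with a gene detected at 100000 counts per cell, young on the x axis and old on the y axis (both in percent), 1 point per gene of 4 lists, red where every old animal is above every young one, with a dashed line at equality. Lymphoid and myeloid genes scatter around the line, apart from Ctsg (37.6% against 11.4%) and Cst7 (36.5% against 16.8%), and cell cycle genes lie above it.

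In summed counts none of these genes was called. All 41 G2 and M genes had a positive log2 fold change, with a median of 0.77, and 5 had an unadjusted p under 0.05. The median was 0.08 within plate set A and 1.23 within plate set B, and 0.43 in cells labelled cycling, with 39 of 41 positive. Ect2 was at 98.9, 61.7, 117.6 and 75.2 CPM in old and 37.8, 10.8 and 17.97 CPM in young animals (2.02 ± 0.54, adjusted p = 0.962 by edgeR). Smc4, a condensin subunit (0.55 ± 0.19), Prc1, the spindle midzone bundler (1.39 ± 0.61), Cenpa, the centromeric histone (0.89 ± 0.40), and Mki67 (0.71 ± 0.50) all had adjusted p = 1 and overlapped between ages. Prc1 was at 100, 159, 114 and 156.3 CPM in old and 106.7, 16.05 and 40.4 CPM in young mice, so young mouse 1 again lay with the old animals.

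Of the S phase genes 27 of 36 were positive, with a median of 0.24, and 11 of 36 with a median of -0.12 in cells labelled cycling. Mcm7, a helicase subunit, was at 539.4, 572, 626.04 and 614.3 CPM in old and 476.7, 493 and 394.4 CPM in young animals, without overlap (0.38 ± 0.16, adjusted p = 1), and Mcm3 overlapped (0.42 ± 0.24). Among 20 genes of G1 and of cell cycle inhibitors none was called (median 0.21, 15 positive). Cdkn1a, the p53-induced inhibitor p21, was at 9.05, 13.2, 5.80 and 13.8 CPM in old and 0.335, 7.95 and 0.670 CPM in young animals (1.74 ± 0.73, adjusted p = 1), with a count in 24 of 121 old and 5 of 101 young cells.

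The G2 and M genes share letters at their start sites. The cell cycle homology region TTTGAA, on either strand, lies in the RefSeq windows of 25 of the 34 list genes that matched (73.5%), against 20.2% of all genes and 4 of 28 S phase genes (14.3%), and CCAAT in 73.5% against 41.1% of all genes. The window of Ect2, the G2 and M gene with the smallest p, is shown with TTTGAA in capitals (GRCm38.p6, minus strand).
Ect2, chr3:27153805-27154104: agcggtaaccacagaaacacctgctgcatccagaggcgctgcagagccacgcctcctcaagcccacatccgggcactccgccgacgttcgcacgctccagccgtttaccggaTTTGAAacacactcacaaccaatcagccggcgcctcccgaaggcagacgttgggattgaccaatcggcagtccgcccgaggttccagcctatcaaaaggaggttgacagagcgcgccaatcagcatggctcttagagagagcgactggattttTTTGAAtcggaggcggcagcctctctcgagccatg
It holds 2 such matches and 3 CCAAT boxes. These matches describe the list and reference sequence, and do not bear on age.

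The 32 lymphoid genes were detected in a mean of 32.4%, 39.97%, 39.7% and 31.02% of the cells of old mice 2, 3, 2-2 and 2-3 and of 31.02%, 37.2% and 31.3% of those of young mice 1, 2-1 and 2-3, which overlap. The means were 35.8% ± 4.73 and 33.1% ± 3.49, a difference of 2.63 points over all 32 genes, of which 5 were never detected. Over the 18 genes in at least 5% of cells the median difference was 3.23 points, with 12 higher in the old mean. Of these 18 genes 1 had all old above all young, Rag2 (8.89% against 4.58%, chosen after its values were seen), and none the reverse. Over all genes in at least 5% of cells these shares were 7.35% and 0.869%.

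Among the lymphoid genes with the largest differences, the 5 given here all overlapped. Dntt, the terminal transferase of early lymphoid cells, was detected in a mean of 57.1% ± 13.6 of old and 47.4% ± 9.90 of young cells, Ikzf1, the lymphoid factor Ikaros, in 74.95% ± 10.7 and 62.1% ± 19.7, Cd79b in 40.2% ± 11.6 and 26.4% ± 4.25, Cd52 in 71.5% ± 12.6 and 57.6% ± 7.03, and Hhex in 81.8% ± 10.7 and 71.4% ± 9.17.

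Summed lymphoid counts gave 0 calls in 25 genes tested, with a median log2 fold change of -0.17 and 10 positive. Ikzf1 was lower in each old animal by CPM, at 106.75, 92.9, 125.01 and 100.6 against 128.4, 154.99 and 141.3 (-0.38 ± 0.30, adjusted p = 1 by edgeR), while its detection share was higher in the old mean. Flt3 (340 to 727 against 588.3 to 748 CPM; -0.30 ± 0.27), Lsp1 (130.8 to 246.3 against 216.2 to 278.2 CPM; -0.47 ± 0.22) and Bcl11a (102 to 133 against 122 to 216.6 CPM; -0.39 ± 0.20) had lower old means and overlapped. Dntt had the higher old mean (531 to 904 against 245.8 to 858 CPM; 0.59 ± 0.73), and Il7r, the interleukin 7 receptor, was at or below 13.002 CPM in every animal.

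Myeloid genes were detected in a mean of 25.04% ± 1.06 of old and 23.03% ± 1.41 of young cells over 34 genes, 2.02 points apart. Of 20 in at least 5% of cells 2 did not overlap, both higher in old. Of all genes in at least 5% of cells, 7.35% had every old animal above every young one. Over the 20 myeloid genes the median difference was 0.595 points, less than the 4.41 points over all genes. Ctsg, the granule protease cathepsin G, was detected in 34.1%, 37.5%, 41.7% and 37.0% of old and 7.50%, 13.8% and 13.04% of young cells. Cst7, cystatin F, an inhibitor of cysteine proteases, was detected in 36.6%, 45.8%, 37.5% and 25.9% of old and 17.5%, 24.1% and 8.70% of young cells. Without thinning the Ctsg shares were 35.8% and 10.3%, and in cells labelled cycling 39.8% and 17.5%. No LT-HSC had a Ctsg count, at 0 of 116 old and 0 of 90 young cells.

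The other myeloid genes with large differences overlapped: Lyz2, lysozyme (86.4% ± 3.64 and 77.9% ± 15.2), Csf2ra, a receptor for granulocyte-macrophage colony-stimulating factor (38.9% ± 8.35 and 32.8% ± 4.46), Hdc, histidine decarboxylase (7.12% ± 3.22 and 1.45% ± 2.51), and Sfpi1, the factor PU.1, which had the lower old mean (58.2% ± 15.5 and 64.4% ± 23.4). Summed counts called 0 of 31 genes, with a median log2 fold change of -0.09 and 14 positive. Mpo, myeloperoxidase, was at 2775, 650.6, 817 and 3009 CPM in old and 659.3, 572 and 1826 CPM in young animals (0.87 ± 0.74, adjusted p = 1 by edgeR), and Elane, neutrophil elastase, came from 8 old and 2 young cells. Ctsg by CPM overlapped, at 57.8 to 347.8 and 14.1 to 130 CPM, as did Lyz2 (-0.60 ± 0.32) and Sfpi1 (-0.76 ± 0.41).

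Of 31 genes of stem cell identity tested none passed in the 16 MPP sums, 10 were positive and the median log2 fold change was -0.08. Hlf, a transcription factor of stem cells, was at 91.1, 76.5, 80.1 and 106.8 CPM in old and 191.4, 192.9 and 234.3 CPM in young animals (-1.24 ± 0.37, adjusted p = 1 by edgeR). Hlf passed with the animal as a block (-1.17 ± 0.20, adjusted p = 0.0389 by limma-voom) and over the 21 unstimulated sums (0.0401 by edgeR). Lmo2 was at 86.6 to 106.97 CPM in old and 152 to 163 CPM in young animals (-0.71 ± 0.35). Neither overlapped between the ages. Kit (325 to 842 against 362 to 1187 CPM; -0.17 ± 0.20) and Cd34 (978 to 1176 against 863 to 1428 CPM; -0.08 ± 0.19) did.

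The 34 genes known to rise in old stem cells were detected in a mean of 10.1% ± 0.943 of old and 7.98% ± 0.836 of young MPP, against 49.1% and 21.6% of LT-HSC. In summed counts 28 were tested, 17 were positive and the median log2 fold change was 0.64, with none called, while the fit over 21 unstimulated sums called 2, Aldh1a1 (adjusted p = 0.0218 by edgeR) and Plscr2. Aldh1a1, a retinaldehyde dehydrogenase, had 1608 counts in 20 old cells and 0 in young MPP. It was at 19.4, 22.4, 17.5 and 61.1 CPM by old animal. Its summed reads were at least 380-fold higher, which again bounds reads and not cells or animals (adjusted p = 1 by edgeR). Rorb was at 4.89 to 11.2 CPM in old and 0 to 0.805 CPM in young animals (4.95 ± 1.91), and Itgb3, an integrin of platelets, overlapped (4.11 to 19.5 against 0 to 4.76 CPM; 1.76 ± 0.69). Klf5 was at or below 1.17 CPM in every animal, and Stat3 overlapped (117.7 to 215.3 against 141.8 to 283.2 CPM; -0.19 ± 0.24).

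Whether the age difference of MPP differed from that of LT-HSC was tested over the 21 unstimulated sums of the 3 populations. It was higher in MPP for 17 of 13344 genes (0.127%) and lower for 5 (0.0375%) by edgeR, and DESeq2 called 171 and 113. At an unadjusted p under 0.05 the counts were 620 (4.65%) and 517 (3.87%). With the animal as a block 12 genes were higher and 6 lower, and 12 of these 18 were among the 22. The count rests on single animals: it was 1 without old mouse 2 or young mouse 2-3, 2 without young mouse 2-1, 4 without young mouse 1, 8 without old mouse 2-3, 9 without old mouse 2-2 and 22 without old mouse 3, of which 10 were among the first 22.

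The 11 genes given here were chosen from the 22 after their values were seen, and 8 of them also passed with the animal as a block. Cdc20, the activator of the anaphase-promoting complex, was at 161 and 82.6 CPM in old and young MPP and at 6.92 ± 4.04 and 115 ± 74.6 CPM in LT-HSC (log2 difference 5.16 ± 0.88, adjusted p = 0.0194 by edgeR). Ube2c, a ubiquitin-conjugating enzyme of the same complex, was at 119 and 58.95 CPM in MPP and at 1.49 ± 1.43 and 95.7 ± 18.6 CPM in LT-HSC (7.09 ± 1.29, 0.0262). Mcm7 (1.80 ± 0.31), the maintenance methyltransferase Dnmt1 (1.78 ± 0.31) and the tubulin-binding stathmin Stmn1 (1.66 ± 0.29) all had adjusted p = 0.0194. Each of these 5 genes had the higher mean in old MPP and in young LT-HSC.

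As lists, the cell cycle genes turned direction between the populations in 1 fit. For G2 and M genes the median log2 age difference was 0.83 in MPP, 1.71 in ST-HSC and -2.91 in LT-HSC, with 41, 38 and 0 of 41 positive. For S phase genes it was 0.26, 0.84 and -1.39, with 28, 35 and 1 of 36 positive, against medians of all genes of 0.00014, 0.040 and 0.0044. In LT-HSC 8 G2 and M genes and 4 S phase genes were called lower in old, where 0.51% of all genes were lower and 0.187% higher. The difference between MPP and LT-HSC had an unadjusted p under 0.05 for 35 of 41 and 18 of 36 genes, all higher.

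Ncf4, a subunit of the phagocyte oxidase, had 0 counts in 116 old LT-HSC and 378 counts in 90 young ones, and overlapped in MPP (32.1 to 50.7 against 35.97 to 81.7 CPM; adjusted p of the difference 0.00106, and passing in 9 of 9 alternatives). Plac8 was at 638.8 and 620 CPM in MPP and at 1.48 ± 2.47 and 39.98 ± 22.5 CPM in LT-HSC (4.88 ± 0.93, 0.0370), and it did not pass with the animal as a block (0.0529 by edgeR). Plscr2, with 0 counts in young MPP, was at 95.4 ± 12.97 and 17.1 ± 15.8 CPM in LT-HSC (0.0451, and 0.0529 with the animal as a block), higher in old in both.

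On the lower side Hlf, at 248.9 ± 72.4 and 182 ± 9.31 CPM in old and young LT-HSC, had the higher mean in old LT-HSC and in young MPP (log2 difference -1.66 ± 0.29, adjusted p = 0.0194 by edgeR). Exoc6b, of the exocyst complex, was at 244.8 ± 42.7 and 76.5 ± 3.36 CPM in LT-HSC and at 19.2 and 47.8 CPM in MPP (-2.92 ± 0.49, 0.0194), and Ldhb, a lactate dehydrogenase subunit, at 202.4 ± 77.4 and 103 ± 13.1 CPM and at 70.8 and 124 CPM (-1.79 ± 0.35, 0.0425, and 0.0606 with the animal as a block). For ST-HSC no gene passed (0 of 13344, 0.0%, by edgeR, against 722 at an unadjusted p under 0.05, and 52 higher and 105 lower by DESeq2).

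**Figure D4:**
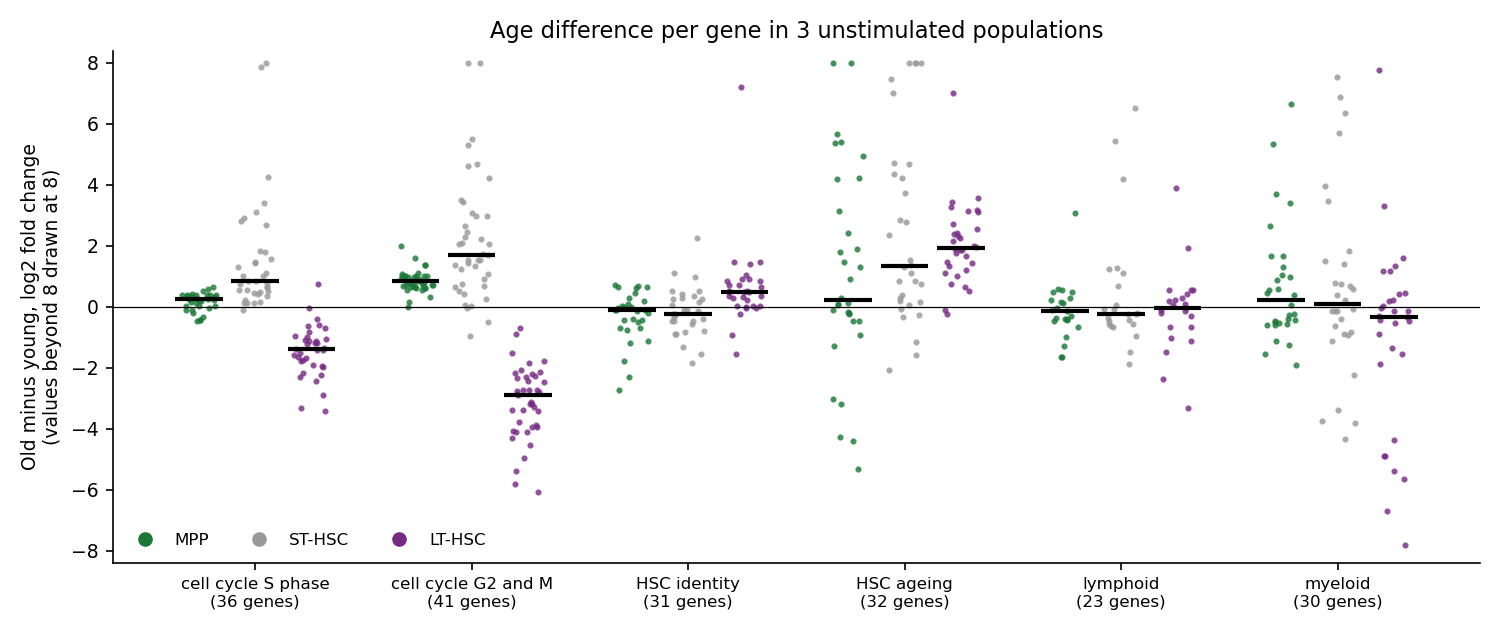
Log2 fold change, old minus young, of each gene of 6 lists in unstimulated MPP (green), ST-HSC (grey) and LT-HSC (purple), fitted together, with black bars at the medians and values beyond 8 drawn at 8. The medians of G2 and M genes are 0.83 in MPP and -2.91 in LT-HSC, and those of lymphoid and myeloid genes lie between -0.34 and 0.21 in all 3 populations.

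Wells of 100 sorted cells gave a shallow second reading of the same animals. There were 10 such wells of unstimulated MPP, with 1137 to 703899 counts each, summed to 7 animals. Both wells of old mouse 3 carried quality labels (plasma, or few genes and pct_trans) and were kept. No gene passed (0.0%, by edgeR, against 31 at an unadjusted p under 0.05, and 0 by DESeq2). Gbp3 had 200 counts in old mouse 2 (247.3 CPM), 7 of them from its plate 1 well and the rest from its plate 2 well. It had 2 in young mouse 1 (3.03 CPM, under the floor of 4.54 CPM for 3 counts), and the other 5 animals had 3 or fewer. Nfkb2 had 5 counts in old mouse 2 (6.18 CPM, 95% exact Poisson interval 1.62 to 11.7 counts) and 7 in young mouse 1 (10.6 CPM, 2.81 to 14.4 counts), the intervals covering counting error only. At the single-cell levels of these 2 animals the wells would have held 25.5 and 1.80 counts, both outside those intervals, so the higher Nfkb2 level of old mouse 2 in single cells was not seen in its wells of 100 cells. The other 5 animals had 1 Nfkb2 count or none, where the single-cell levels give 1.57 or fewer. For Gbp3 the single-cell levels give 49.2 counts in old mouse 2 and 8.39 in young mouse 1. Both lie outside the 95% exact Poisson intervals of the Gbp3 counts (173.2 to 229.7 and 0.242 to 7.22). The wells of these 2 animals thus matched the single-cell level for neither gene, though old mouse 2 was the higher for Gbp3 in both.

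Lists for growth and stress gave no call. Of 47 genes of oxidative phosphorylation 33 were positive (median log2 fold change 0.10), and Atp5d, a subunit of ATP synthase, was at 247.8, 243.6, 231.7 and 227.3 CPM in old and 177, 212.1 and 170 CPM in young animals (0.35 ± 0.21, adjusted p = 1 by edgeR). Of 29 growth and Myc genes 18 were positive (0.07), with Pa2g4 at 0.31 ± 0.17. Of 26 heat shock and stress genes 8 were positive (-0.14); the endoplasmic reticulum genes Herpud1 (-0.65 ± 0.22) and Hspa5 (-0.41 ± 0.16) had the lower means in old and overlapped.

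Markers of other cell types ranged from absent to as high as those of MPP. The 7 myeloid markers summed to 1209 to 4729 CPM in old and 1014 to 2463 CPM in young animals, beside 2024 to 3056 and 1948 to 3498 CPM for 7 MPP or progenitor markers, and Prtn3 and Mpo, granule proteins, had a count in 90.99% and 79.3% of cells. The 5 macrophage markers summed to at most 15.2 and 17.6 CPM. Summed levels of 7 plasma and B cell markers were 110 to 143.8 CPM in old and 171 to 201.4 CPM in young animals, where Xbp1, with a count in 66.2% of cells, made up most and Ms4a1 was at 0. Sdc1, a plasma cell surface protein, was at 3.99 to 15.96 and 16.1 to 88.0 CPM (-2.34 ± 1.90, adjusted p = 1 by edgeR). The 6 T and NK cell markers, 3 of them at 0, summed to 128.6 to 229.1 and 42.8 to 136 CPM, nearly all from Nkg7 (0.87 ± 0.39), with a count in 73.4% of cells. The 6 erythroid markers reached 181 CPM in old mouse 2, where Car1 came from 1 cell, and the 5 stromal and endothelial markers 351 CPM in young mouse 1, where Cxcl12 came from 2 cells; Cdh5 and Kdr were at 0 and Pecam1 had a count in 56.8% of cells. The part of these cells in the differences above was not tested.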

How the data were processed

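Single cells and wells of 100 cells from mouse bone marrow were sequenced as polyA RNA by SMART-seq2, per the labels' protocols. The deposited expected counts and TPM values per gene come from RSEM on mouse build mm9, per the submitters' processing notes; the RSEM version, aligner, annotation and strand setting are not given in the sources used here. The authors deposited expected counts, which need not be whole, and TPM values, which are scaled to the same total in each cell. No table column was left without a sample (0). Group, animal, plate and quality labels came from the sample labels; on plate 4 the titles number mice differently from the mouse label, and the mouse label was used.

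The 222 kept cells were those without a quality label, and their expected counts were summed per animal and rounded. The edgeR fits tested 12664 genes in MPP, 13344 in the 3 populations and 683 in wells of 100 cells; 594 of 12664 had an unadjusted p under 0.05 for the stimulation difference. Sums of at least 5 cells entered edgeR 4.0.16 (R 4.3.3; TMM, filterByExpr, quasi-likelihood test, Benjamini-Hochberg at 0.05) over 16 MPP sums, adjusting for plate set, or 21 unstimulated sums for differences between populations. Alternatives used DESeq2 1.42.0, limma 3.58.1 (voom, or log2 of mean TPM plus 1 or 0.1), other filters and cells, and 1 animal left out at a time. Detection shares count cells with at least 1 count after thinning to 100000 counts without Rn45s. Shares per animal were compared by exact permutation (scipy 1.17.1). No molecular identifiers were used, so floors and intervals cover counting error only, and a floor is 3 counts. Nothing in the labels says how animals were housed or processed. The permutation p-values measure the spread between these animals. The edgeR fits over 16 or 21 sums without the animal as a block took sums of 1 animal as independent. Their p-values therefore mix the spread within and between animals. In the 7 unstimulated sums, 1 per animal, the adjusted p was 0.95 for Nfkb2 and for Gbp3 by edgeR.

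The named genes were those past the threshold, the genes with the smallest p up to 5 in each direction, up to 4 members of each list with the smallest p, 13 genes always given, and for detection the 6 genes of each list with the largest difference. Some genes that this rule names are not reported here. Members and lists were chosen with earlier results of these data known. Stimulated and unstimulated cells of 1 animal are paired by its label. Their deviations from the group means correlated across 4869 genes with a mean r of 0.188 (0.0807 to 0.291 over 7 animals) and -0.0628 once the plate set was removed; genes are not independent replicates. The scripts were tested on simulated data.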

Additional observations from a re-analysis of the deposited data

Results flagged for a closer look

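Among 56 quantities with 4 old animals, 3 had 1 animal far from the other 3, where chance gives about 1 in 20. Mid1 was at 121.5 CPM in old mouse 2-3, against 51.97 to 57.7 CPM in the other old animals. Aldh1a1 was at 61.1 CPM in the same animal, against 17.5 to 22.4 CPM. The cycling share was 76.9% in old mouse 2-2, against 89.7% to 92.0%.

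The age difference in MPP was called different from that in LT-HSC for 22 genes by the edgeR test of the difference. The 11 described above were chosen from these after their values were seen. The log2 differences were 9.57 for Ncf4, 7.56 for Plscr2, 7.09 for Ube2c, 5.16 for Cdc20, 4.88 for Plac8, 1.80 for Mcm7, 1.78 for Dnmt1 and 1.66 for Stmn1. They were -2.92 for Exoc6b, -1.79 for Ldhb and -1.66 for Hlf. Plscr2, Plac8 and Ldhb did not pass with the animal as a block. Of the 11, only Ncf4 passed in all 7 fits that left out 1 animal, and each of the others passed in 0 to 2 of them.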

How the results depend on the processing

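The count of 2 genes called between old and young MPP became 0 in the 7 unstimulated sums, within plate set B and in cells labelled cycling. It became 1 within plate set A, where the gene was neither Nfkb2 nor Gbp3, and 1 (Nfkb2) with log2(mean TPM + 0.1) and with few-genes and pct_trans cells kept, and 0 to 3 when 1 animal was left out. DESeq2 called 76 genes, no filter on low counts 69, cells without the cycling label 36 (where 1 old animal has 5 or more such cells), and the 21 unstimulated sums, added after the data were seen, 4. With the animal as a replicate block, 7 genes were called. Neither the 4 nor the 7 held Nfkb2 or Gbp3. The block gave 0 genes for the stimulation and ST-HSC differences and 18 for LT-HSC, 12 of them among the 22. DESeq2 called 88, 157 and 284 genes in those comparisons. Leaving out 1 animal gave 0 to 1, 0 to 2 and 1 to 22 genes, and 0 to 1 in the wells of 100 cells, where no filter gave 24. The myeloid detection difference was 0.452 points at 5 or more counts, and that of S phase genes 4.71 points in cells labelled cycling.

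The fit of cells without the cycling label leaves 1 old unstimulated animal, mouse 2-2, with 6 such cells. In that fit log2 fold changes turned sign for Zfp346 (-0.37), H2-Q7 (-1.01), Rorb (-4.70), Itgb3 (-2.57), Ect2 (-4.35), Mki67 (-3.93) and Bcl11a (0.087). Within plate set A they turned for Creb5 (1.67), Kit (0.10) and Cd34 (0.21), and within plate set B for Lyz2 (0.070) and Stat3 (0.0063). With 1 animal left out, Lyz2 lay between -0.94 and 0.15 (the highest without young mouse 1) and Stat3 between -0.42 and 0.084 (the highest without young mouse 2-3), and Stat3 was 0.22 in cells labelled cycling. The cause was not tested. Over 48 genes, 1121 of 1196 values kept direction and side of the threshold, 29 lost the call, 31 gained one and 15 turned. With 4 against 3 animals, sums of 7194754 counts or more and few positive cells for many genes, small differences were not detectable.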

Other observations

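Some genes were found in old MPP and in no young MPP, a part of them in 1 cell only, and all were chosen after their values were seen. Bmpr1a, a receptor for bone morphogenetic proteins, was counted in 20 of 121 old cells, from all 4 old animals, and in 0 of 101 young cells. Its summed reads were at least 104.9-fold higher (floor of 3 counts over the group), which bounds reads and not cells or animals. Tcf7, a factor of T cell precursors, had 506 counts in 1 cell of old mouse 2-3, and Emr1, a macrophage surface protein, was counted in 1 cell of old mouse 2. Cebpe, a factor of late granulocyte precursors, had 94 counts in 3 old cells.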
